A study of Danio rerio with 4 samples.

Results

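The genes described here encode the DNA replication machinery and its S phase supply lines. They are the rows of the count table whose symbol names a subunit of the origin recognition complex, the MCM helicase and its partners, a replicative polymerase, the sliding clamp or its loader, the RPA single-strand binding complex, an enzyme of Okazaki fragment processing or deoxynucleotide supply, or a factor of S phase histone supply. Of 58 rows that matched this symbol rule, 53 had at least 1 molecule counted, out of 8640 genes with a count in the whole series. The other 5 rows, ORC3, ORC5, RRM2B, mcm3l and pold3, stood at 0 in every library. Symbols are given as the symbol table has them, and those in capitals are human-style names for the zebrafish gene.

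The embryos were gastrulating zebrafish of strain AB, 9 hours after fertilization (9 hpf), and were mosaic for a marked population of cells. In the β-catCA mosaics the marked cells carried a constitutively active β-catenin together with green fluorescent protein (GFP), and in the control mosaics the marked cells carried GFP without it. All 4 libraries, 2 lots per group, hold the GFP-negative cells left after sorting, that is, cells without the marker, and the comparison asks how cells that shared an embryo with Wnt-active cells differ from cells that shared one with plain GFP cells. The sort takes unmarked cells whatever their distance to a marked cell, and the labels do not say whether the lots are separate clutches, so p-values cover only the spread between these libraries, which may be technical.

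Replication starts at origins that the origin recognition complex (ORC) marks, where CDC6 and CDT1 load the MCM2-7 ring, the core of the replicative helicase. In S phase, CDC45 and the GINS complex join the ring, and polymerase α with primase lays down primers. Polymerases δ and ε, held on DNA by the PCNA clamp, extend the primers, and geminin keeps CDT1 from loading new rings. Zebrafish cleavage divisions run on maternal stores of these proteins with hardly any gap phases, and cycles lengthen after the midblastula transition, before the stage sampled here.

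Libraries were made with CEL-Seq2, a 3′-end method in which every captured molecule carries its own barcode, the unique molecular identifier or UMI. Counts of UMIs therefore do not scale with transcript length. Gene UMIs numbered 61304 and 59260 in control lots 1 and 2, 65098 in β-catCA lot 1 and 8403 in β-catCA lot 2. β-catCA lot 2 was thus the shallow library, in which a count of 0 allowed up to 3 UMIs, or 373 counts per 1000000 gene UMIs after trimmed-mean (TMM) scaling (CPM), against 45.7 to 49.4 CPM in the other 3. The 25 listed gastrula entries matched 27 rows, sox11a and sox11b the same ones, and all 27 had UMIs. By contrast, 6 of 9 yolk syncytial layer genes, mxtx1 and mxtx2 among them, stood at 0. Enveloping layer genes, which mark the outer epithelium, summed to 1224 and 955 CPM in the controls and to 2120 and 2987 CPM in the β-catCA mosaics, with 8 of 18 at 0 and 1 of 2 tested members, krt8, called higher (log2 change 1.37, adjusted p = 0.038 by edgeR). That call was lost with library totals (adjusted p = 0.079), DESeq2 (0.9986), limma-voom (0.058), no filter (0.77) and the lot block (0.26), and the adjusted p ran from 0.019 to 0.27 with single libraries left out. The gastrula markers summed to 7325 and 8002 CPM in the controls against 6756 and 4357 CPM, with 0 of 13 tested members called and 1 at an unadjusted p below 0.05. Of all 1071 tested genes, edgeR called 0.84% in either direction and 0.28% higher, and 10.5% had an unadjusted p below 0.05. The enveloping layer sums rest on 76, 58, 139 and 24 UMIs in control lots 1 and 2 and β-catCA lots 1 and 2. Of these, krt8 gave 35, 27, 79 and 13 and krt18a.1 gave 19, 18, 34 and 4. Each other listed enveloping layer gene had at most 10 UMIs in any library. The gastrula sum in β-catCA lot 2 rests on 35 UMIs. The part that these 2 differences play in any value below was not tested. In such bulk samples fewer cells of a type and less RNA per cell cannot be told apart.

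Replication genes were detected in every library, 45 of the 53 in each control lot, 46 in β-catCA lot 1 and 23 in β-catCA lot 2. Their sum was close to equal between the group means, with the β-catCA lots on opposite sides of the controls. Together the 53 genes took 1.14% and 1.13% of gene UMIs in control lots 1 and 2, with 699 and 667 UMIs, and 1.21% and 0.9996% in β-catCA lots 1 and 2, with 790 and 84 UMIs. The exact binomial 95% interval of the shallow library, from 0.798% to 1.24%, took in the share of each of the others; it covers counting error only. On the CPM scale the sum was 11118 ± 192 in the controls (SD, n = 2) and 11252 ± 1125 in the β-catCA mosaics (SD, n = 2), so that the β-catCA lots spanned more than the groups differed. A sum over chosen genes carries no test here.

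UMIs were spread very unevenly over these genes. MCM7 with 553 UMIs and PCNA with 420 held 43.4% of the 2240 UMIs, and in the controls they ranked 47 and 56 by CPM among the 8640 genes. A filter on low counts passed 15 of the 53 genes, which held 86.8% of the UMIs, with totals between 35 and 553. A further 10 genes had between 10 and 32 UMIs and the remaining 28 between 1 and 9, too few to follow between groups.

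**Figure D1:**
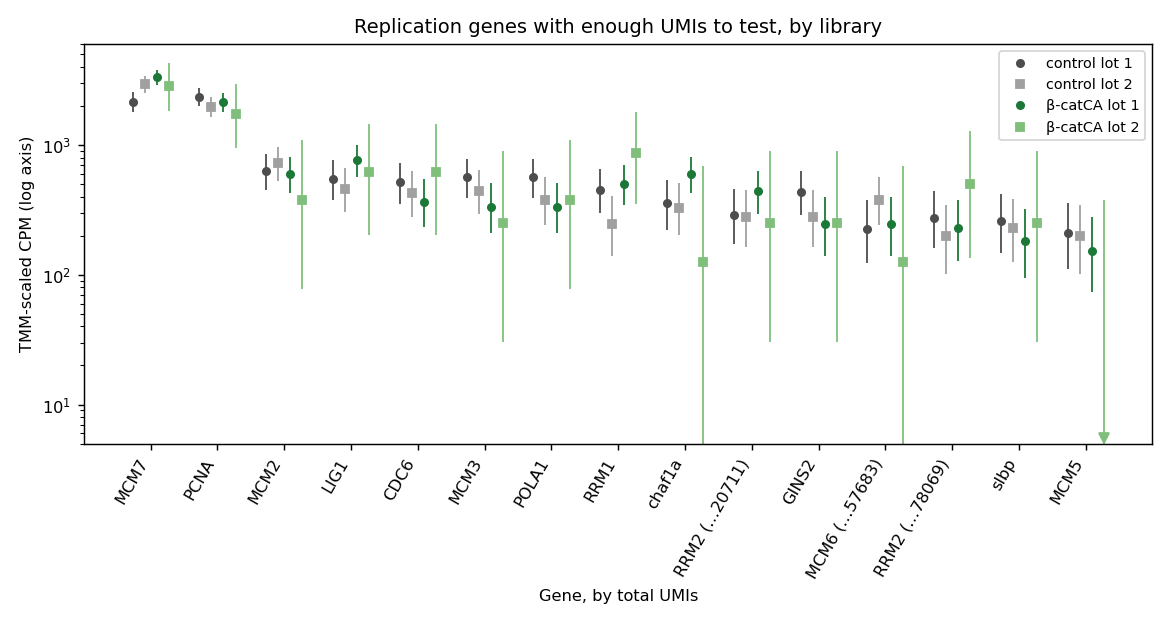
TMM-scaled CPM on a log axis for the 15 tested replication genes in each of the 4 libraries, ordered by total UMIs; lines are exact Poisson 95% intervals of the count, or up to 3 UMIs for a count of 0, those of a single UMI run off the lower edge, and the triangle marks MCM5 at 0 UMIs in β-catCA lot 2. MCM7 and PCNA stand at 1743 CPM or more in every library and every other gene at 871 CPM or less, and the intervals of β-catCA lot 2 are the widest. Digits after RRM2 and MCM6 are the end of the gene identifier.

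None of the 15 tested genes passed the test between the β-catCA and control mosaics. The quasi-likelihood test of edgeR with Benjamini-Hochberg adjustment over all 1071 tested genes called 9 genes (0.84%), of which 0 are replication genes, and the smallest adjusted p among these was 0.60, for RRM1. At an unadjusted p below 0.05 the count was 0 of 15, where 112 of all tested genes (10.5%) lay below it. DESeq2 and limma-voom also called 0 of the 15, where they called 1 and 2 of all 1071 tested genes. Fitted changes were small and ran in both directions: 6 genes had a positive and 9 a negative log2 change, from -0.64 to 0.70 with a median of -0.21, against 516 positive (48.2%) and 555 negative and a median of -0.03 over all tested genes. All 15 of the 95% intervals included 0, and 2 of them, those of MCM7 and PCNA, stayed within a 2-fold change in either direction. For the other 13 the interval took in a 2-fold change in the direction of the fitted change, so such a change was not excluded.

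**Figure D2:**
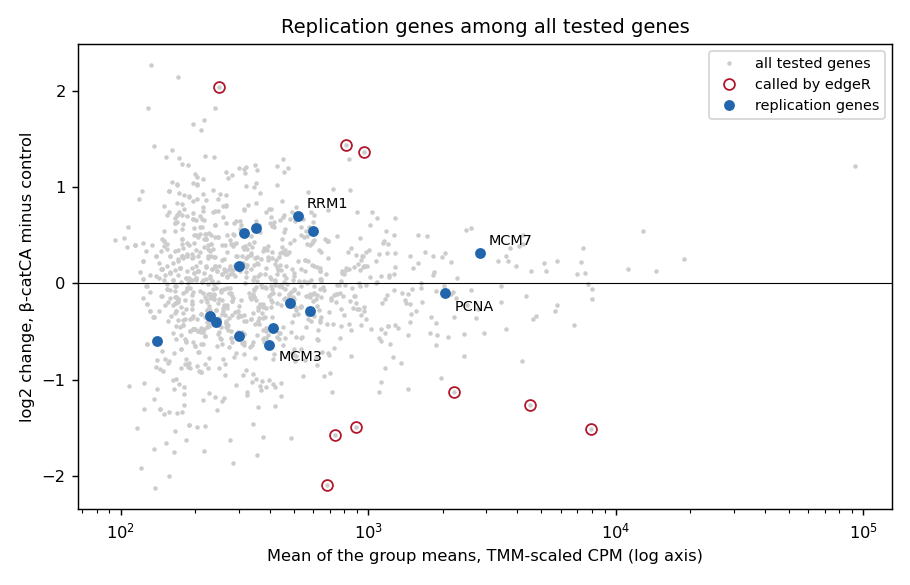
Fitted log2 change (β-catCA minus control mosaics) against the mean of the group mean CPM (log axis) for the 1071 tested genes, with the 15 replication genes filled in blue and the 9 called genes ringed in red. The replication genes lie between -0.64 and 0.70, inside the cloud of all genes, and none is ringed.

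Origin recognition and licensing genes were mostly near the detection limit. CDC6 (ENSDARG00000009942), the loading ATPase, stood at 515 and 428 CPM in control lots 1 and 2 and at 366 and 622 CPM in β-catCA lots 1 and 2. The β-catCA lots lay on opposite sides of the controls, and the higher of them rests on 5 UMIs. Its fitted log2 change was -0.21 (SE 0.43, adjusted p = 0.93 by edgeR), although the β-catCA mean of 494 ± 181 CPM (SD, n = 2) was above the control mean of 472 ± 61.6 CPM (SD, n = 2), since the fit weighs libraries by depth. ORC2, written orc2 in the table, had 6, 0, 4 and 2 UMIs in control lots 1 and 2 and β-catCA lots 1 and 2. ORC4 had 7 UMIs in all, ORC6 had 6, CDT1, the licensing factor, had 3 and ORC1 had 2. CDT1 was at 0 in both β-catCA lots and geminin (GMNN), its inhibitor, had 2, 1, 3 and 0 UMIs in the same library order. No difference in licensing genes was detectable at this depth.

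Among the subunits of the MCM2-7 ring, MCM7 had a positive fitted change and the other 4 tested rows had negative ones, none past the test. MCM7 (ENSDARG00000101180) stood at 2157 and 2931 CPM in the controls and at 3324 and 2863 CPM in the β-catCA mosaics. The groups overlapped, since control lot 2 was above β-catCA lot 2, and the log2 change was 0.32 (95% interval from -0.18 to 0.82, edgeR adjusted p = 0.72). MCM2 (ENSDARG00000102798), which also binds histones, gave 628 and 725 CPM in the controls against 595 and 373 CPM in the β-catCA mosaics. Both β-catCA lots were below both controls, with a log2 change of -0.28 (95% interval from -1.05 to 0.49). The MCM2 value in β-catCA lot 2 rests on 3 UMIs. MCM3 (ENSDARG00000024204) had 563 and 445 CPM in the controls and 335 and 249 CPM in the β-catCA mosaics, again without overlap. Its log2 change of -0.64 (SE 0.44, 95% interval from -1.53 to 0.24, adjusted p = 0.67 by edgeR) was the lowest of the 15, and the β-catCA values rest on 22 and 2 UMIs. MCM5 (ENSDARG00000019507), which with MCM2 forms the gate of the ring in yeast, had 13 and 12 UMIs in the controls, 10 in β-catCA lot 1 and 0 in β-catCA lot 2. In the controls this came to 209 and 198 CPM, in β-catCA lot 1 to 152 CPM, and the 0 allows up to 373 CPM, more than any control, so the lack of overlap carries little information. MCM5 also passed the low-count filter through the control lots alone.

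The symbol MCM6 stands on 2 rows of the table, which the symbol table does not tell apart; as near-identical copies could share reads, each value is uncertain. The more abundant row (ENSDARG00000057683) had 225 and 379 CPM in the controls and 244 and 124 CPM in the β-catCA mosaics, which overlap, and a log2 change of -0.40 (95% interval from -1.44 to 0.64). The other row (ENSDARG00000033231) was under the filter, with 6 and 10 UMIs in the controls and 1 UMI in each β-catCA lot. In the fit without the filter its log2 change was -2.29 (95% interval from -4.36 to -0.21), with an unadjusted edgeR p of 0.031 and an adjusted p of 0.77. It was the single one of the 53 genes with an unadjusted p below 0.05 in that fit, which called 0 of all 8640 genes (0%) and had 220 of them below that unadjusted level. Its CPM overlapped between groups, at 96.6 and 165 against 15.2 and 124. Changes in the fit without the filter lay lower, with a median of -0.22 over the 1071 tested genes against -0.03 in the main fit. MCM4 (ENSDARG00000040041), also under the filter, had 9 and 5 UMIs in the controls and 17 and 1 in the β-catCA lots, with a fitted change of 0.90 (95% interval from -0.45 to 2.25).

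The ring holds each subunit in equal number as protein, which these RNA counts do not measure. In UMIs, MCM7 far outnumbered its partners. Its 553 UMIs were 4.42 times those of MCM2 and 6.43 times those of MCM3, and 30.7 times those of the scarcer MCM6 row. These are ratios of counts, and whether molecules of each gene were captured and assigned equally well was not tested. As a share of all MCM2-7 UMIs, MCM7 made up 53.6% and 59.5% in control lots 1 and 2 (exact binomial 95% intervals from 47.2% to 59.9% and from 53.7% to 65.1%). In β-catCA lots 1 and 2 the share was 67.5% and 74.2% (intervals from 62.1% to 72.6% and from 55.4% to 88.1%). Both β-catCA lots were thus above both controls, in a share that library scaling does not change. The interval of β-catCA lot 1 lay above that of control lot 1, and the other intervals overlapped between the groups. They cover counting error only. In CPM, MCM7 itself overlapped between the groups, and 40.8% of all tested genes did not. The smallest two-sided p that an exact permutation test can give with 2 libraries against 2 is 0.33, so that test cannot pass 0.05 here. No other test of the share was run, and it was computed after the single subunits had been seen. In UMIs, the control lots had 134 and 178 for MCM7 against 116 and 121 for the other subunits together, and the β-catCA lots had 218 and 23 against 105 and 8.

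**Figure D3:**
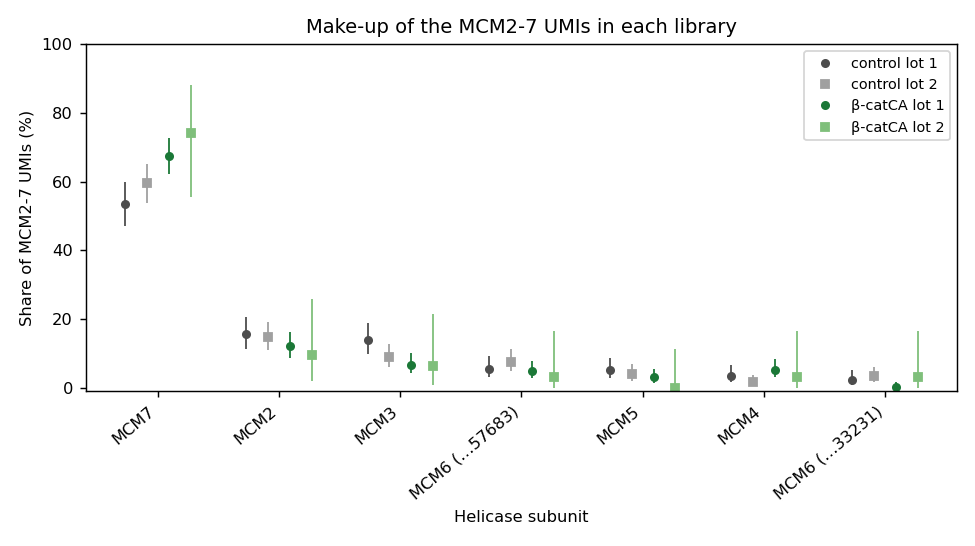
Share of the MCM2-7 UMIs (%) that each subunit row took in each library, with exact binomial 95% intervals that cover counting error only. MCM7 takes 53.6% and 59.5% in the control lots and 67.5% and 74.2% in the β-catCA lots, and each other row takes less than 16% in every library.

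The genes that turn the loaded ring into a running helicase were scarce. GINS2 (ENSDARG00000002304), a subunit of the GINS complex, was the single tested one, with 435 and 280 CPM in the controls and 244 and 249 CPM in the β-catCA mosaics. The groups did not overlap, but control lot 2 lay close to both β-catCA lots, and the value in β-catCA lot 2 rests on 2 UMIs. The log2 change of GINS2 was -0.54 (SE 0.49, adjusted p = 0.79 by edgeR). CDC45, the ring's other partner, had 8, 5, 6 and 0 UMIs in control lots 1 and 2 and β-catCA lots 1 and 2, and GINS3 had 6, 5, 5 and 0. MCM10, which helps to activate the helicase, had 3, 4, 8 and 0 UMIs in that order. Summed, the 6 genes of this role had 46, 32 and 36 UMIs in the 3 deep libraries and 2 in β-catCA lot 2, or 0.075%, 0.054%, 0.0553% and 0.0238% of gene UMIs. The interval of the last share, from 0.00288% to 0.086%, takes in the other 3.

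Polymerase genes were led by POLA1 (ENSDARG00000045308), the catalytic subunit of the primer-making polymerase α. It had 563 and 379 CPM in the controls and 335 and 373 CPM in the β-catCA mosaics. The β-catCA lots were below both controls, by little in the case of control lot 2, and the value in β-catCA lot 2 rests on 3 UMIs. The log2 change was -0.46 (SE 0.44, adjusted p = 0.81 by edgeR). The regulatory subunit POLA2 had 3, 2, 4 and 1 UMIs in control lots 1 and 2 and β-catCA lots 1 and 2. Of the polymerase ε genes, POLE2 had 6, 12, 3 and 1 UMIs and POLE4, a histone-fold subunit, had 5, 4, 10 and 1 UMIs. Their fitted changes without the filter were -1.52 (95% interval from -3.29 to 0.24) and 0.85 (95% interval from -0.74 to 2.43), opposite in sign, and neither interval excluded 0. In that fit the median change over the 1071 tested genes was lower than in the main fit. The histone-fold partner pole3 had 3, 3, 3 and 0 UMIs. POLE itself, which the symbol rule does not catch and the role sums leave out, had 1, 2, 1 and 0 UMIs. Polymerase δ and primase were close to undetected, with 5 UMIs for POLD2, 2 each for POLD1 and PRIM1 and 1 each for pold4 and PRIM2 over all 4 libraries.

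PCNA (ENSDARG00000054155), the sliding clamp that holds polymerases on DNA, was among the most precise values. It stood at 2351 and 1976 CPM in the controls and at 2135 and 1743 CPM in the β-catCA mosaics, so that the groups interleave. The means were 2163 ± 265 CPM (SD, n = 2) and 1939 ± 277 CPM (SD, n = 2), and the fitted difference was -0.10 on the log2 scale (SE 0.27; adjusted p from edgeR 0.95). With its 95% interval from -0.63 to 0.44, a 2-fold change of PCNA in either direction lay outside the interval. MCM7 and PCNA UMIs stood in a ratio of 0.918 and 1.48 in the control lots and 1.56 and 1.64 in the β-catCA lots, and the control lots differed more from each other than control lot 2 did from either β-catCA lot. The clamp loader genes RFC1 to RFC5 and the RPA genes had between 1 and 7 UMIs each over all 4 libraries, and β-catCA lot 2 had 1 UMI for the whole of this group, from RFC1.

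LIG1 (ENSDARG00000060041), the ligase that seals Okazaki fragments, had 547 and 461 CPM in the controls and 762 and 622 CPM in the β-catCA mosaics. Both β-catCA lots were above both controls, and the value in β-catCA lot 2 rests on 5 UMIs. The means were 504 ± 61.1 CPM (SD, n = 2) and 692 ± 99.1 CPM (SD, n = 2), with a log2 change of 0.54 (SE 0.38, 95% interval from -0.22 to 1.30, adjusted p = 0.69 by edgeR). FEN1, the flap nuclease of the same pathway, had 2, 0, 2 and 0 UMIs in control lots 1 and 2 and β-catCA lots 1 and 2. Genes of RNase H2, which removes RNA from DNA, totalled 7 UMIs for rnaseh2c, 6 for RNASEH2B and 3 for RNASEH2A.

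Deoxynucleotide supply genes had positive fitted changes in all 3 tested rows, none past the test. RRM1 (ENSDARG00000014017), the large subunit of ribonucleotide reductase, had 451 and 247 CPM in the controls and 503 and 871 CPM in the β-catCA mosaics. The groups did not overlap, but control lot 1 lay close to β-catCA lot 1, and the highest value rests on 7 UMIs. Its log2 change of 0.70 (SE 0.43, 95% interval from -0.17 to 1.58, adjusted p = 0.60 by edgeR) was the highest of the 15. The small subunit symbol RRM2 stands on 2 rows that may share reads and are uncertain for that reason. The first (ENSDARG00000020711) had 290 and 280 CPM in the controls and 442 and 249 CPM in the β-catCA mosaics, and a change of 0.52 (SE 0.45). The second (ENSDARG00000078069) had 274 and 198 CPM in the controls and 229 and 498 CPM in the β-catCA mosaics, and a change of 0.17 (SE 0.53). Within each row the β-catCA lots lay on opposite sides of at least 1 control, and the lot that was high in the first row was the low one in the second. TYMS, thymidylate synthase, had 0, 3, 2 and 0 UMIs. As a group these 4 genes took 0.103% and 0.0793% of gene UMIs in the controls and 0.121% and 0.155% in the β-catCA mosaics. Of the roles of at least 2 genes, only this one had both β-catCA shares above both control shares. The interval of the last share, from 0.0824% to 0.264%, takes in the share of control lot 1. It lies just above that of control lot 2, and RRM1 gave 7 of the 13 UMIs behind the last share. DNA polymerase subunits went the other way, with 0.0881% and 0.0793% in the controls against 0.0737% and 0.0714% in the β-catCA lots. Both of their β-catCA shares were thus below both control shares. The last of them rests on 6 UMIs, and its interval, from 0.0262% to 0.155%, takes in both control shares. Among single tested genes, 40.8% had groups that did not overlap in CPM, and no role sum was tested.

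Genes of histone supply split between the lots. The table's chaf1a (ENSDARG00000062152), the large subunit of the CAF-1 complex that places histones behind the fork, had 354 and 329 CPM in the controls, 595 CPM in β-catCA lot 1 and 124 CPM in β-catCA lot 2. The β-catCA lots thus fell on either side of the controls, with 39 UMIs in the high one and 1 UMI in the low one. Its log2 change was 0.58 (SE 0.43, adjusted p = 0.72 by edgeR), and without β-catCA lot 1 it was -1.43. The histone mRNA binding protein slbp (ENSDARG00000100558) had 258 and 231 CPM in the controls and 183 and 249 CPM in the β-catCA mosaics, with a change of -0.35 (SE 0.55). CHAF1B, the middle subunit of CAF-1, had 7 UMIs in all and slbp2 had 1. The pattern also caught mcm3ap, an mRNA export protein in mammals and no helicase subunit, with 4, 4, 6 and 1 UMIs.

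**Figure D4:**
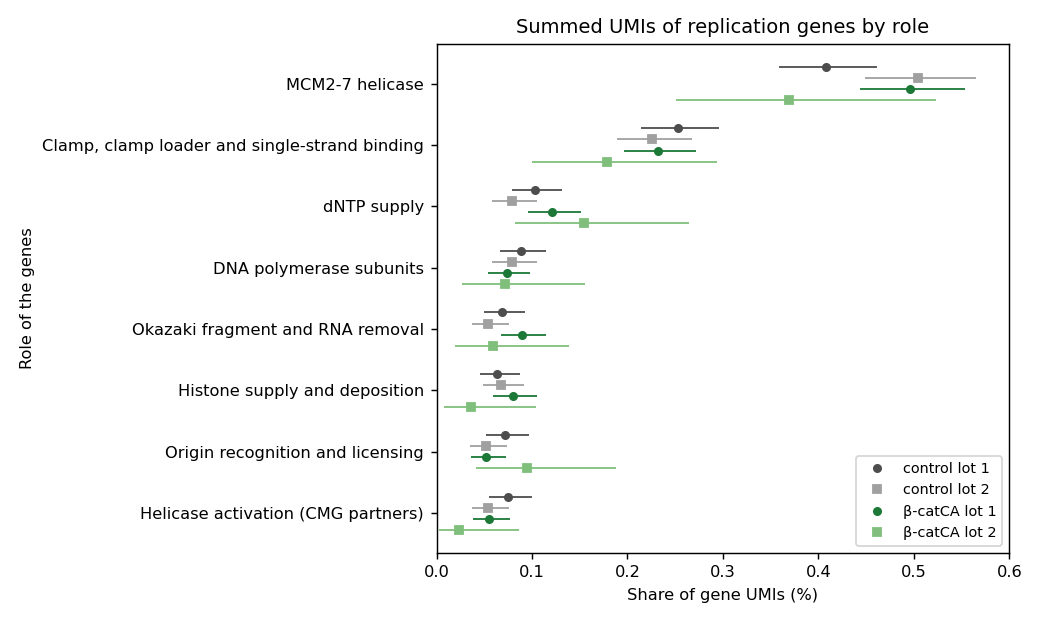
Share of gene UMIs (%) taken by each role of at least 2 replication genes in each library, with exact binomial 95% intervals that cover counting error only. In all 8 roles the interval of β-catCA lot 2 overlaps those of the other 3 libraries. Deoxynucleotide (dNTP) supply runs from 0.0793% and 0.103% in the controls to 0.121% and 0.155% in the β-catCA lots. DNA polymerase subunits run from 0.0881% and 0.0793% in the controls down to 0.0737% and 0.0714% in the β-catCA lots.

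Fitted changes of the replication genes thus had both signs, also between subunits of 1 complex. None passed the test, all 15 of the 95% intervals included 0, and differences between genes were not tested. Groups did not overlap in 2 of 15 tested genes with β-catCA higher, LIG1 and RRM1, where 17.2% of all tested genes did so. They did not overlap in 5 of 15 with β-catCA lower, MCM2, MCM3, MCM5, GINS2 and POLA1, where 23.6% did, so in either direction 7 of 15 stood beside 40.8% of all tested genes. These shares, 13.3% and 33.3% of the replication genes, are 2 and 5 genes and stand near those of all tested genes. MCM5 entered the tested set only through the controls, the group where it is high, so its place among the lower genes is no evidence of a change. The share over all tested genes also holds genes that entered in that way. With each library left out in turn, 8 of 15 genes (53.3%) had the same sign in all 4 fits, and so had 48.0% of all tested genes. The 8 were those 7 and MCM7. Where groups do not overlap, a kept sign follows almost by construction, so for those 7 it is no separate evidence. The other 7, both RRM2 rows, chaf1a, CDC6, PCNA, slbp and the tested MCM6 row, turned sign in at least 1 fit.

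**Figure D5:**
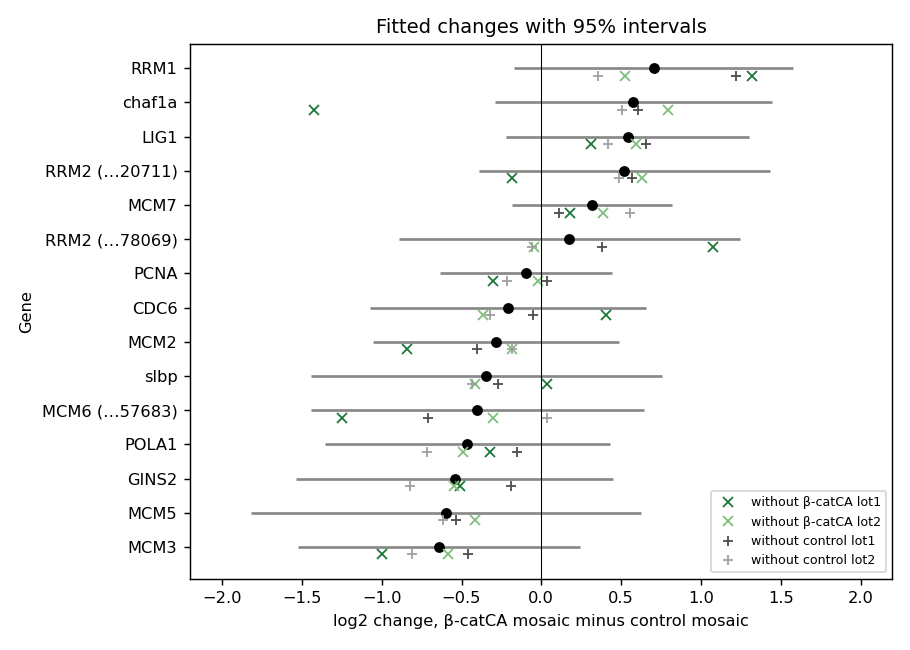
Fitted log2 change (β-catCA minus control mosaics) of the 15 tested replication genes with 95% intervals from edgeR; crosses below each line are the fits without a single library. Intervals of all 15 genes include 0, and chaf1a moves from 0.58 to -1.43 without β-catCA lot 1; the point of MCM5 without that lot is left out, since its remaining β-catCA count is 0.

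Genes that work beside the replication machinery were read from lists of names. Of the S phase entry and origin firing genes, 5 were tested, 3 with positive and 2 with negative changes, and 0 were called. E2F8, an atypical E2F repressor, had 6, 4, 13 and 2 UMIs in control lots 1 and 2 and β-catCA lots 1 and 2, and a log2 change of 1.31 (SE 0.77, adjusted p = 0.58 by edgeR). CCNA2, the S phase cyclin A, had a change of 0.17 (SE 0.49) and cdkn1ca, a cyclin-dependent kinase inhibitor, of 0.18 (SE 0.49). TFDP1, the E2F partner, had a change of -0.19 (SE 0.52) on the tested row of its symbol. In the fork protection and checkpoint list, 2 genes were tested and 0 called. These were WEE1, the kinase that holds back mitotic entry, with 14, 5, 17 and 4 UMIs and a change of 0.91 (SE 0.55, adjusted p = 0.59 by edgeR), and TIMELESS, a fork protection protein, with a change of 0.74 (SE 0.66).

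Topoisomerase genes were the 2 tested fork enzymes outside the symbol rule, and 0 were called. TOP1, which relaxes DNA ahead of the fork, was more abundant than any replication gene, with 391 and 389 UMIs in the controls and 375 and 35 UMIs in the β-catCA mosaics on the tested row. Its log2 change was -0.29 (SE 0.23, adjusted p = 0.73 by edgeR), and that of TOP2A, which untangles sister strands, was -0.41 (SE 0.56). Nucleotide supply genes had 4 positive and 2 negative changes in 6 tested, with 0 called. CAD, which starts pyrimidine synthesis, had a change of -0.60 (SE 0.57), dhfr, dihydrofolate reductase, of 0.51 (SE 0.54) and UMPS of 0.42 (SE 0.50). CTPS1 had a change of 0.29 (SE 0.49) on the tested row of its symbol. In the list of G2 and mitosis genes 7 were tested, 4 positive and 3 negative, and 0 were called. mki67, a marker of cycling cells, had a change of 0.59 (SE 0.38, adjusted p = 0.65 by edgeR), with 29, 32, 53 and 4 UMIs, and AURKB, a mitotic kinase, had one of -0.37 (SE 0.40). MAD2L1, of the spindle checkpoint, had a change of 0.58 (SE 0.60) and CCNB1, the mitotic cyclin B, of 0.40 (SE 0.48). The median change was 0.28 over these 7 genes, 0.19 over the 6 of nucleotide supply, 0.17 over the 5 of S phase entry, 0.82 and -0.35 over the 2 fork protection genes and the 2 topoisomerase genes, and -0.07 over 6 replication-coupled chromatin genes. It was -0.21 over the 15 replication genes and -0.03 over all tested genes, and none of these medians carries a test.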

How the data were processed

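The authors deposited 1 table of UMI counts, not normalized, with Ensembl genes in rows and the 4 libraries in columns. The submitters' processing notes name GRCz10 as the build and HTSeq 0.6.1 and Bowtie2 2.3.1 as tools; the UMI collapse rule and the use of strand, not given in the sources used here, could change low counts. Last in the table come 5 rows that name no gene. They held 57.7% and 58.3% of all counts in control lots 1 and 2 and 52.4% and 58.1% in β-catCA lots 1 and 2, and stayed out of library sizes and tests.

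Genes were matched to the rule by symbol, and 8225 of 8640 genes with a UMI had one. Of 207 list entries, 182 brought in a row. The others include entries whose rows an earlier entry of the same list had already matched. The count test was that of edgeR 4.0.16 (R 4.3.3): TMM factors, filterByExpr with a minimum count of 10, quasi-likelihood with robust=TRUE, Benjamini-Hochberg adjustment over all 1071 tested genes at 0.05, and library sizes from all gene UMIs. Log2 changes are β-catCA minus control. For genes below that filter, values come from a fit of all genes with a UMI. Its changes lay lower, with a median of -0.22 over the 1071 tested genes against -0.03 in the main fit. Replicate libraries were not copies, since chi-square per degree of freedom over genes was 1.75 between the controls and 2.39 between the β-catCA lots. DESeq2 1.42.0, limma 3.58.1 (voom), other scalings, no filter, a lot block and each library left out were alternatives. The procedure was tested on simulated data. Every gene that passed the filter or had at least 10 UMIs was to be named, and up to 4 tested genes with the smallest p of each other list. The members and lists were chosen with earlier results of these data known. No sequences or positions are printed, since no sequence of the build was used here.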

Additional observations from a re-analysis of the deposited data

Results flagged for a closer look

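Outside the gene rows, the row of counts that were not aligned held 35.8% of all counts of β-catCA lot 2 (exact binomial 95% interval from 35.2% to 36.5%, counting error only), whereas the shares were 21.1% and 22.9% in the control lots and 19.9% in β-catCA lot 1. This is the library with 84 UMIs of replication genes; its part in their values was not tested.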

How the results depend on the processing

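No replication gene was called under any alternative run. Of all genes, 3 were called higher and 6 lower; the counts were 0 and 2 with library totals, 0 and 1 with DESeq2, 0 and 2 with limma-voom, 0 and 0 with no filter, and ran from 0 to 5 and from 3 to 12 with single libraries left out. With the lot number as a replicate block they were 0 and 2. Deviations of same-numbered lots had r = -0.01 across genes, but counting error in the shallow β-catCA lot 2 pulls such an r toward 0. The log2 CPM of tested genes correlated at 0.89 between the control lots and at 0.49 between the β-catCA lots. This r thus cannot tell whether a number marks a shared batch, and the labels do not say so. The median change of the 15 tested genes was -0.21, was -0.39 with no filter, where that of the same 1071 genes moved from -0.03 to -0.22, and ran from -0.30 to -0.053 with single libraries left out. Non-overlapping replication genes then numbered 3 to 5 higher (20% to 33.3%, beside 27.2% to 35.5% of all tested genes) and 6 to 9 lower (40% to 60%, beside 34.8% to 50%); 1 library against 2 overlaps less often by construction. Signs turned with a library left out for CDC6 (-0.37 to 0.41), chaf1a (-1.43 to 0.79), MCM6 ENSDARG00000057683 (-1.25 to 0.035), PCNA (-0.30 to 0.033), slbp (-0.43 to 0.038) and RRM2 ENSDARG00000020711 (-0.18 to 0.63) and ENSDARG00000078069 (-0.058 to 1.08); the cause was not tested. Under the other 7 alternatives all 15 genes kept their direction. Depth also limits these values: β-catCA lot 2 had a median of 3 UMIs per tested replication gene.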

Other observations

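Replication-coupled chromatin genes had 6 tested members, 3 with positive and 3 with negative changes, and 0 were called. The lowest p was that of SSRP1, a subunit of the FACT histone chaperone. Its tested row had 4 and 6 UMIs in control lots 1 and 2 and 16 and 3 UMIs in β-catCA lots 1 and 2. The fitted log2 change of that row was 1.66 (SE 0.67, adjusted p = 0.38 by edgeR). A second row with the symbol SSRP1 stood at 0 in every library. SUPT16H, the other FACT subunit, had 46 and 43 UMIs in the controls and 44 and 3 in the β-catCA mosaics. Its change was -0.23 (SE 0.37). The partners thus had fitted changes of opposite sign, and the difference between them was not tested. RBBP4, a histone-binding protein shared with CAF-1, had a change of -0.37 (SE 0.48) and npm1a, a nucleolar histone chaperone, of 0.33 (SE 0.44). Primordial germ cell genes gave 1, 4, 4 and 0 UMIs in control lots 1 and 2 and β-catCA lots 1 and 2, with ddx4 and piwil1 at 0. The 13 mitochondrially encoded genes summed to 32651 and 42861 CPM in the controls and 35272 and 45807 CPM in the β-catCA lots, with 0 of 10 tested members called.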
